A study of Mus musculus with 4 samples.

Results

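The proximal tubule takes up filtered amino acids through a small set of membrane carriers. The measurements below describe 10 genes of this set, *Slc6a18*, *Slc6a19*, *Slc6a20b*, *Slc3a1*, *Slc7a7*, *Slc7a8*, *Slc7a9*, *Slc7a13*, *Slc1a1* and *Tmem27*, taken by symbol from the 31053 genes of the count tables. All 10 had a row in the tables. Single-nucleus RNA-seq was performed on kidneys of 4 male mice aged 12 weeks, with 1 library per mouse: 2 *Hoxb7Cre+;Tfap2a fl/fl* mice (knockout) and 2 Cre-negative littermates (control). All 4 mice carried the floxed *Tfap2a* alleles, and the controls differed by the lack of the Cre transgene. Hoxb7Cre is active in the collecting duct system, so the proximal tubule is not where recombination was driven. Cortex was cut back before nuclei were prepared, so shares of nuclei are not those of a whole kidney.

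Sodium-coupled carriers at the brush border bring amino acids into the cell. *Slc6a19* (B0AT1) and *Slc6a18* (B0AT3) carry neutral amino acids and need an accessory membrane protein at the surface, which in the kidney is collectrin, encoded by *Tmem27* (also named *Cltrn*). *Slc6a20b* is a mouse copy of the imino acid carrier gene, beside *Slc6a20a*, and transport was not measured here. *Slc3a1* encodes rBAT, the heavy chain that pairs with the light chain of *Slc7a9* (b0,+AT) for cystine and dibasic amino acids and with that of *Slc7a13* (AGT1) for cystine and acidic amino acids. *Slc1a1* (EAAC1) takes up glutamate and aspartate. On the blood side, *Slc7a7* (y+LAT1) and *Slc7a8* (LAT2) are light chains that pair with the heavy chain of *Slc3a2*. The tubule is divided into segments S1, S2 and S3, from the glomerulus to the outer medulla.

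The genes lie on 8 chromosomes of the mouse genome mm10 (RefSeq annotation of GRCm38.p6), and 2 pairs share one. *Slc6a18* (chr13:73661750-73678023) and *Slc6a19* (chr13:73679745-73700780) are adjacent, with 1721 bases between them. *Slc7a7* (chr14:54369442-54420068) and *Slc7a8* (chr14:54722215-54781886) lie 302146 bases apart. The others are *Slc6a20b* (chr9:123593823-123632538), *Slc3a1* (chr17:85028347-85064241), *Slc7a9* (chr7:35448727-35466034), *Slc7a13* (chr4:19818727-19842213), *Slc1a1* (chr19:28835135-28913960) and *Tmem27* (chrX:164090187-164118859). The spans of *Slc3a1* and *Slc7a7* overlap the protein-coding genes *Prepl* and *Oxa1l*, which had 1133 and 1826 UMIs in proximal tubule nuclei. That of *Slc6a19* overlaps the noncoding *Slc6a19os*, which had 22 UMIs there. The span of *Slc7a9* overlaps the noncoding *Gm42378*, and that of *Slc1a1* the noncoding *Gm52404* and the pseudogene *Gm5822*, for which no count was found. How reads in shared stretches were counted is not given in the sources used here.

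RefSeq promoter windows, from 250 bases before to 50 after an annotated start, were found for 8 of the 10 genes (14 windows of GRCm38.p6). The 4 shown were taken from those whose letters matched 1 of 3 short motifs that were chosen after the windows had been read. They were searched on both strands. They were GTTAATNAT for HNF1 and CAAAGTCCA for HNF4, factors of the proximal tubule, and GCCNNNGGC for AP-2, the family of the deleted factor. Capitals mark the match. The *Slc6a19* window (chr13:73692587-73692886, minus strand) and the *Slc7a7* window lie within the annotated spans of their genes.
Slc6a19: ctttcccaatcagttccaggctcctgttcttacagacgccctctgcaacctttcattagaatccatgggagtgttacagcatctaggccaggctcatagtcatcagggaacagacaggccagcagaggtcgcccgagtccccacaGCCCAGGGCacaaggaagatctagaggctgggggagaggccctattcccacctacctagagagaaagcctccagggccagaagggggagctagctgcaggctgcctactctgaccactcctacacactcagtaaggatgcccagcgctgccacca
Slc7a7 (chr14:54417653-54417952, minus strand): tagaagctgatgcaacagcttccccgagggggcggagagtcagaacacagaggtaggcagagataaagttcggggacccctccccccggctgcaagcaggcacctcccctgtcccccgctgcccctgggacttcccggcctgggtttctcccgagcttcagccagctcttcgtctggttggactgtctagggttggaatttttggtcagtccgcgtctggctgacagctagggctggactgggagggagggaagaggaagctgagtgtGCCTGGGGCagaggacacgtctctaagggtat
Slc3a1 (chr17:85028097-85028396, plus strand): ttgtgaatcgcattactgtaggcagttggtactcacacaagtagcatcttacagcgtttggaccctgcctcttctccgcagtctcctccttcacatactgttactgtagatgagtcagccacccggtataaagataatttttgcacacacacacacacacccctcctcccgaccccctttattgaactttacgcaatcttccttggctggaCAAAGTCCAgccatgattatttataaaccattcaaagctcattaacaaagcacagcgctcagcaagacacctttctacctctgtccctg
Tmem27 (chrX:164089937-164090236, plus strand): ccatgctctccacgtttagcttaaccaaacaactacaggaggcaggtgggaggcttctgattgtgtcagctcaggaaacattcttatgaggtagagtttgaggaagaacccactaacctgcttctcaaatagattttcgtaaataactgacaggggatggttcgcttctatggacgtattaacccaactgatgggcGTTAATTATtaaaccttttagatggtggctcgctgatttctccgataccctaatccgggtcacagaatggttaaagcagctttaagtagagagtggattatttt

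The AP-2 letters stood in the windows of *Slc6a19* and of *Slc7a7*, where 3 of 14 windows held them because 2 windows of *Slc7a7* overlap, and in 16.59% of all 32851 promoter windows. The HNF4 letters, found in the *Slc3a1* window, stood in 0.47% of all windows, and the HNF1 letters of the *Tmem27* window in 0.8%. Each stood in 1 of the 14 windows. The motifs were chosen after these windows had been read, so the shares cannot show enrichment. These are matches of letters and not measured sites.

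The libraries held 44964099 UMIs in knockout 1, 22179410 in knockout 2, 42138345 in control 1 and 24998797 in control 2. After the study's filters 27343 nuclei remained, 5430 to 7998 per mouse, and pairs of libraries shared 7 to 18 barcodes. Clustering gave 25 clusters, and it did not use the 10 genes or 34 other amino acid transporters, so their levels did not place a nucleus in a segment. Of the nuclei, 13695 (50.1%) were proximal tubule-like: 4698 S1-like, 5853 S2-like and 3144 S3-like. The names rest on marker lists. The 5 S1 markers summed to 8876 to 10650 counts per 1000000 UMIs (CPM) in S1, 2419 to 2735 in S2 and 406 to 562 in S3. The S3 markers ran the other way, from 2202 to 2410 CPM in S1 to 12510 to 15260 CPM in S3, and 1 of the 7 listed was at 0. The S2 markers separated less, at 1463 to 2032 CPM in S1, 2801 to 3575 in S2 and 839 to 1294 in S3. Marker scores (mean level relative to the highest proximal cluster) of the larger S1 cluster, 2534 nuclei, were 0.78 for S1 and 0.71 for S2. With the transporters left in the clustering, a cluster of 1444 nuclei scored 0.70 and 0.88 and was named S2. The border of S1 and S2 is thus uncertain. Control 2 stood apart in composition, with 35.5% of its proximal tubule nuclei in S3 against 18.0% to 23.7% in the other mice, so levels are given by segment. RNA free in the droplets was estimated from thick ascending limb markers in proximal tubule nuclei, as if every such UMI were free RNA. By this estimate, which can be too high, it made up 18.1% of proximal tubule UMIs in knockout 1 and 17.9% in control 1. It was 5.6% in knockout 2 and 12.5% in control 2. Levels in a segment are read against this estimate and carry the same limit. *Tfap2a* had 1 to 3 UMIs per mouse in the proximal tubule. In collecting duct principal cells it was at 61.1 CPM in knockout 1, 106 CPM in knockout 2, 56.0 CPM in control 1 and 95.8 CPM in control 2. The tags are from the 3′ end and the floxed exons lie inside the gene, so this level is no check of the deletion.

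The 10 genes fell into 2 groups along the tubule. *Slc6a19*, *Slc7a7*, *Slc7a8*, *Slc7a9* and *Tmem27* were highest in S1 and lowest in S3, and *Slc6a18*, *Slc7a13*, *Slc3a1*, *Slc6a20b* and *Slc1a1* were lowest in S1 and highest in S3. Each of these orders held in 4 of 4 mice. The steepness differed widely: between the ends of the tubule the mean change over 4 mice was 33.6-fold for *Slc6a18* and 1.43-fold for *Slc6a20b*. Levels are CPM, the UMIs of the gene per 1000000 UMIs summed over the nuclei of a segment and mouse. They count 3′ ends, so each gene is compared with itself across segments. Segments were defined in these same nuclei, so the levels are a description with no test.

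**Figure D1:**
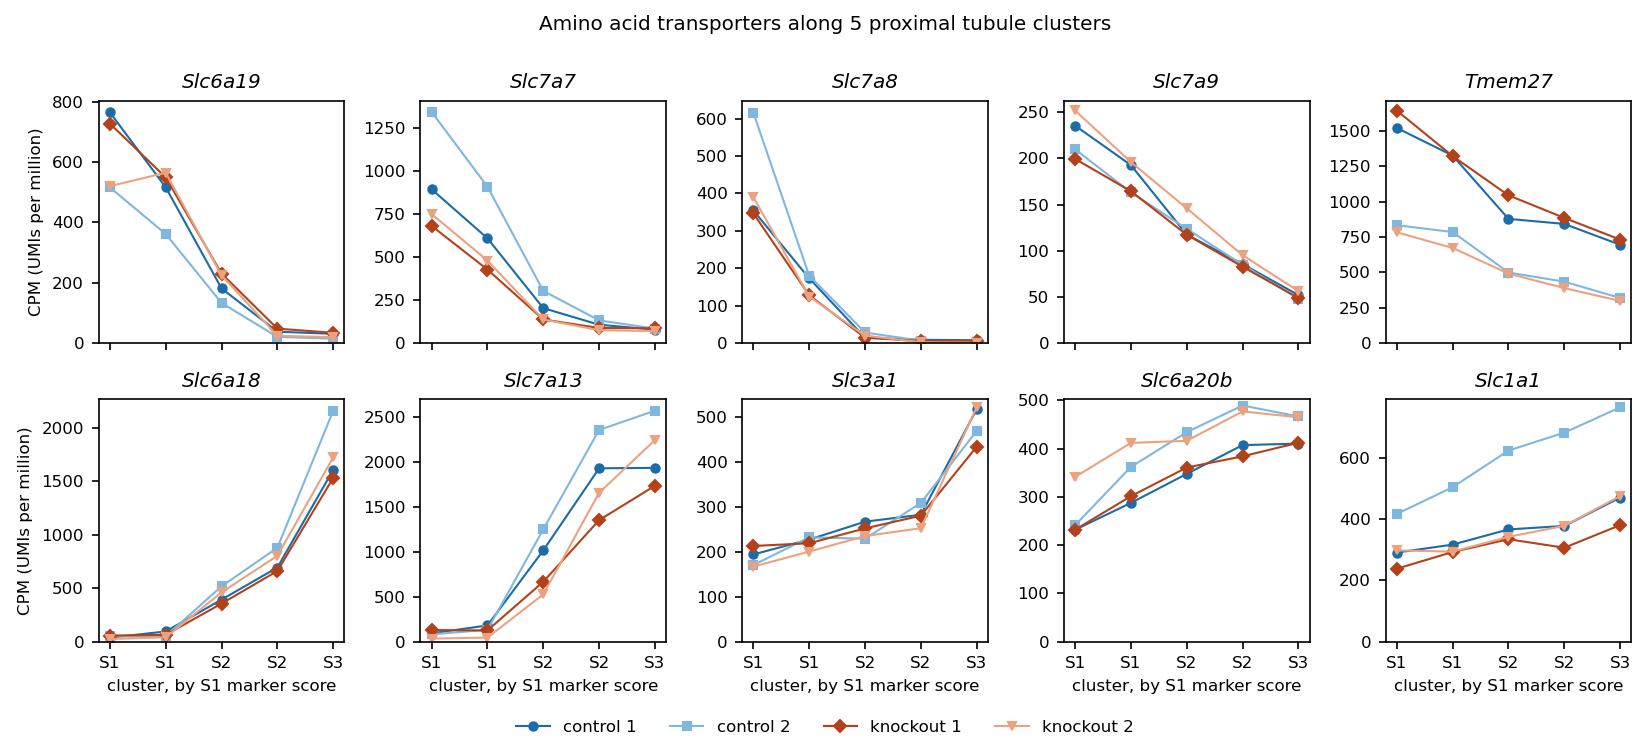
Level of each of the 10 genes, in CPM on a linear axis from 0, in 5 proximal tubule clusters ordered from left to right by falling S1 marker score; each line is 1 mouse. The 5 genes of the upper row fell from S1 to S3 and the 5 of the lower row rose, and *Tmem27* was higher in both replicate 1 mice than in both replicate 2 mice throughout.

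The adjacent carriers *Slc6a19* and *Slc6a18* had opposite gradients. *Slc6a19* was at 621 CPM in S1 of control 1, 420 in control 2, 614 in knockout 1 and 548 in knockout 2. In S3 its level was 31.3, 15.5, 34.7 and 20.2 CPM in the same order, 17.7-fold to 27.1-fold lower. S1 and S3 values did not overlap in any mouse, and S2 lay between at 69.3 to 121 CPM. *Slc6a18* was at 70.4, 49.9, 60.5 and 33.6 CPM in S1 and at 1606, 2159, 1531 and 1723 CPM in S3, 22.8-fold to 51.2-fold higher. Its S2 values, 540 to 723 CPM, also lay between.

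The low ends of both gradients were near the level that free RNA would give. For *Slc6a18* in S1 the observed level was 0.72 to 1.54 times that expected of free RNA, and for *Slc6a19* in S3 it was 0.84 to 1.67 times. With each nucleus thinned to 1000 UMIs and shallower nuclei left out (192 of 4698 in S1, 11 of 3144 in S3), 4.5% of S1 nuclei had a *Slc6a18* UMI (11.8% before thinning), beside 76.6% of S3 nuclei (97.1% before). In thick ascending limb nuclei, which should lack the gene, the thinned share was 3.6%, at a median depth of 1960 UMIs against 2630 in S1. The highest ratios to free RNA, 1.54 and 1.67, were both those of knockout 2, the library with the least free RNA.

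*Tmem27*, the gene for their shared accessory protein, was in every segment. In S1 it was at 1408 CPM in control 1, 804 in control 2, 1439 in knockout 1 and 715 in knockout 2, and in S3 at 696, 320, 732 and 299 CPM. The fall from S1 to S3 was 1.97-fold to 2.51-fold. Both replicate 1 mice were higher than both replicate 2 mice in every segment, whatever the genotype. The replicate 1 libraries also held more free RNA, in which *Tmem27* was at 1305 to 1873 CPM; its part in this difference was not tested. In S3 its level was 1.64 to 4.31 times that expected of free RNA, and with free RNA subtracted the log2 ratio of S1 to S3 was 1.60 against 1.14. *Slc6a20b* rose least, from 264, 316, 276 and 385 CPM in S1 to 410, 466, 412 and 465 CPM in S3 (control 1, control 2, knockout 1, knockout 2). Its S2 and S3 levels differed by a log2 of -0.07 ± 0.06 (S2 minus S3; SD, n = 4).

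The heavy chain *Slc3a1* and its light chain *Slc7a13* both rose along the tubule, while its other light chain, *Slc7a9*, fell. *Slc3a1* was at 213 CPM in S1 of control 1, 209 in control 2, 217 in knockout 1 and 188 in knockout 2, and at 518, 470, 434 and 522 CPM in S3. It rose 2.00-fold to 2.78-fold with no overlap between segments. *Slc7a9* went the other way, from 210, 181, 177 and 217 CPM in S1 through 96.4 to 117 CPM in S2 to 52.1, 48.0, 49.0 and 56.4 CPM in S3. Its fall of 3.61-fold to 4.04-fold was the most even among mice of the 10 genes. *Slc7a13* was at 142, 112, 125 and 40.1 CPM in S1, 1571, 1877, 1078 and 1166 CPM in S2 and 1930, 2565, 1731 and 2239 CPM in S3. Most of its rise lay between S1 and S2, with a mean of 14.7-fold against 1.51-fold between S2 and S3. In S1 *Slc7a13* was at 0.83 to 1.45 times the level expected of free RNA, so the S1 value is a ceiling.

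Among the basolateral light chains, *Slc7a8* fell by a mean log2 ratio of S1 to S3 of 6.15 ± 1.46 (SD, n = 4), above the 4.49 ± 0.31 of *Slc6a19*. With 1 CPM added the ratios were 5.71 and 4.43, and with free RNA subtracted as well they were 8.15 and 8.18. The subtracted ratios are set by S3 levels near 0, so they do not rank the 2 genes. *Slc7a8* was at 250 CPM in S1 of control 1, 345 in control 2, 208 in knockout 1 and 225 in knockout 2. In S2 the levels were 11.4, 16.3, 9.5 and 10.5 CPM, a mean of 21.6-fold lower. In S3 they were 8.1, 2.5, 7.2 and 1.1 CPM, at 0.34 to 1.01 times the level expected of free RNA. The S3 value of knockout 2 rests on 3 UMIs, and its ratio of S1 to S3 of 207 has an exact 95% interval of 70.7 to 1008, for counting error alone. The gradient ran within S1 as well: over 4 mice *Slc7a8* averaged 427 CPM in the first S1 cluster and 152 CPM in the second. *Slc7a7* fell more slowly, from 730, 1073, 521 and 583 CPM in S1 through 103 to 206 CPM in S2 to 79.2, 85.6, 87.5 and 70.8 CPM in S3. In S3 it was still 2.61 to 7.04 times the level expected of free RNA.

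*Slc1a1*, the carrier of acidic amino acids, was at 305 CPM in S1 of control 1, 470 in control 2, 272 in knockout 1 and 295 in knockout 2. In S3 it was at 469, 764, 380 and 474 CPM. The rise of 1.40-fold to 1.62-fold within each mouse was of the size of the difference between the 2 control mice, and control 2 was the highest mouse in each segment. With free RNA subtracted, the 2 groups still held 5 genes each. The log2 ratios of S1 to S3, with 1 CPM added, then reached -9.96 for *Slc6a18*, 8.18 for *Slc6a19*, 8.15 for *Slc7a8* and -8.16 for *Slc7a13*, which are values set by a low end near 0.

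The genes whose profiles were most like those of the 10 in shape, whatever the size of the change, were found by Pearson correlation. It was taken on log2 CPM with 10 added, centred within each mouse, over the 12 values of 3 segments and 4 mice. Among 4026 genes of at least 50 CPM, *Slc6a19* was nearest to *Adra1a* and *Slc5a12* (r = 0.998 for both) and *Tmem27* to *Gatm* (r = 0.998) and *Slc5a2* (r = 0.994). *Slc5a12*, *Gatm* and *Slc5a2* are among the markers that named the nuclei. Between S1 and S3 *Gatm* fell from 1554 to 44.1 CPM and *Slc5a2* from 925 to 18.8 CPM (means of 4 mice). *Tmem27* fell only 1.97-fold to 2.51-fold. *Slc7a9* was nearest to *Arsb* and *Mkln1*, *Slc7a8* to *Agfg2*, and *Slc7a7* to *Arvcf* and *Wdfy3*. Of the genes that rose, *Slc6a18* was nearest to *Gm853* and *Echdc2*, *Slc7a13* to *Nudt19* and *Slc5a8*, *Slc3a1* to *Ppic* and *Hsd11b1*, *Slc6a20b* to *Trim7* and *Kifc3*, and *Slc1a1* to *Gclm* and *Arpp19*. All of these r values lay between 0.990 and 0.999. With 3 segments per mouse many genes share such a course, and the 12 values share libraries.

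Of 34 other amino acid and peptide transporters and partners listed beside the 10, 14 reached 50 CPM in a segment. By control means, 6 of these were highest in S1, 1 in S2 and 7 in S3. *Slc3a2*, the heavy chain that pairs with *Slc7a7* and *Slc7a8*, ran in the same direction as both, with 92.3 CPM in S1 and 20.97 CPM in S3 (means of 4 mice). The aromatic amino acid carrier *Slc16a10* fell from 455 ± 74.8 CPM in S1 to 36.8 CPM in S3, and *Slc43a2* from 305 ± 38.7 to 10.6 CPM. *Slc36a1*, *Slc6a8* and *Slc38a9* completed those lower in S3 than in S1, while *Slc38a6* was at 92.2 ± 18.8 CPM in S1 and 91.45 ± 8.85 CPM in S3. The taurine carrier *Slc6a6* rose from 310 ± 77.3 CPM in S1 to 823 ± 162.5 CPM in S3 (SD, n = 4). *Slc6a20a*, *Slc6a13*, *Slc15a2*, *Slc7a12*, *Slc1a4* and *Slc38a3* were likewise highest in S3 in 4 of 4 mice.

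Outside the proximal tubule, levels of the 10 genes were read against free RNA. The count expected in a class was taken from its UMIs of 10 proximal tubule markers and the gene's share in barcodes under 100 UMIs, as if every marker UMI there were free RNA. *Slc7a8* stood furthest above this in distal classes. In connecting tubule (CNT) nuclei it was at 170 CPM in control 1, 182 in control 2, 147 in knockout 1 and 62.1 in knockout 2, below its S1 level in each mouse. The CNT total of 348 UMIs was 8.55 times that expected (exact Poisson 95% interval 7.68 to 9.5, counting error alone). In this cluster of 837 nuclei 13.02% were called doublets. At resolution 0.8 the CNT cluster held 740 nuclei, 2.30% of them called doublets. The ratio was not taken without doublets or in that clustering.

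In intercalated cells of the collecting duct (CD-IC) *Slc7a8* was at 74.3, 93.7, 63.6 and 97.8 CPM, 12.3 times the expected count over the 4 mice. In the distal convoluted tubule (DCT) it was at 70.0, 44.8, 65.7 and 38.5 CPM, 7.41 times expected. Thick ascending limb (TAL) values were 42.5, 63.7, 52.6 and 36.8 CPM, 7.66 times expected. In these 4 classes every mouse was above the expected count, with ratios per mouse of 4.14 at the lowest and 35.5 at the highest. Collecting duct principal cells (CD-PC) were lower, at 13.3 to 30.1 CPM and 2.92 times expected. Ratios were also above 1 in thin limb (1.78, 76 UMIs), interstitial cells (2.15, 15 UMIs) and immune cells (2.98, interval 1.54 to 5.2, 12 UMIs). In endothelial cells (EC) the ratio was 1.18 (interval 0.81 to 1.66), which is not above free RNA at this depth. In nuclei thinned to 1000 UMIs, 12.5% of CNT nuclei, 7.6% of CD-IC, 5.0% of DCT and 4.6% of TAL nuclei had a *Slc7a8* UMI, against 1.3% of endothelial and 0.70% of S3 nuclei. With the profile of proximal tubule nuclei in place of free RNA the ratios were 9.41 in CNT, 12.8 in CD-IC, 8.01 in DCT and 7.8 in TAL.

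**Figure D2:**
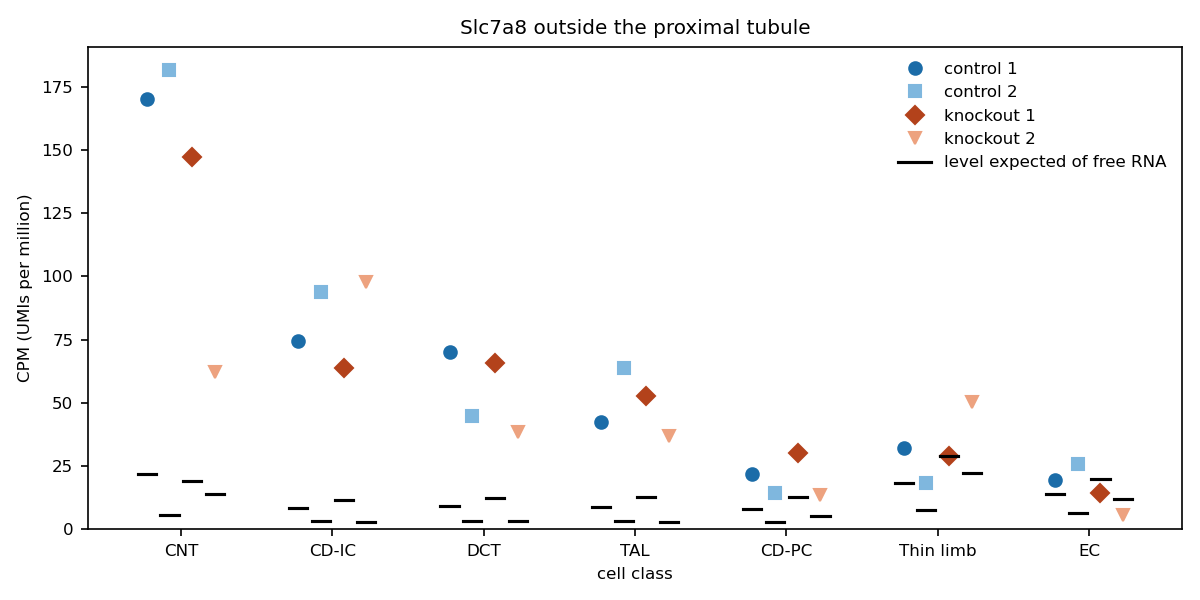
*Slc7a8* level in CPM, on a linear axis from 0, in 7 classes outside the proximal tubule; points are the 4 mice and short bars the level expected of free RNA in the same library. All mice lay above their bar in CNT, CD-IC, DCT and TAL, whereas points and bars mixed in EC.

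The other 9 genes had lower ratios than *Slc7a8* in CNT, CD-IC, DCT and TAL, at most 1.91. *Slc6a18*, *Slc6a19*, *Slc6a20b*, *Slc7a9* and *Slc7a13* had ratios between 0.18 and 1.58 in the 11 classes. *Slc1a1* was above both references in thin limb nuclei, at 140, 161, 136 and 166 CPM in control 1, control 2, knockout 1 and knockout 2. That was 2.80 times expected of free RNA and 1.63 times with the proximal tubule profile, in nuclei that also held 1973 to 4899 CPM of proximal tubule markers. The profile pooled S1 to S3, but *Slc1a1* and *Slc6a18* were highest in S3. The markers were at 8643 to 9187 CPM in S3 and 13220 to 15140 CPM in all proximal tubule nuclei. In the thin limb cluster 12.99% of nuclei were called doublets. At resolution 0.8 a cluster of 256 nuclei with thin limb markers was set aside as mixed, with 34.38% doublets. What S3 RNA or doublets add to the thin limb ratios was not tested. Some smaller excesses lay above both references as well. *Slc6a18* was at 1.58 times free RNA in thin limb (499 UMIs) and *Slc1a1* at 1.91 times in TAL (415 UMIs), each above 1 in 4 of 4 mice. *Slc7a7* was at 1.52 times in TAL (324 UMIs, 4 of 4 mice) and 1.53 times in thin limb (3 of 4 mice), and *Slc3a1* at 1.28 times in TAL (4 of 4 mice) and 1.38 times in DCT (3 of 4 mice). *Tmem27* was 0.76 to 1.76 times expected of free RNA and 2.1 to 5.12 times expected of the proximal tubule profile. It was above both references in TAL (1.76 and 5.12 times), DCT (1.75 and 4.73 times) and EC (1.45 and 4.05 times). In these classes 4 of 4 mice were above free RNA. CD-IC (1.36 times free RNA), interstitial cells (1.20 times) and CD-PC (1.19 times) also lay above both, with 3 of 4 mice above free RNA. For *Tmem27* in the remaining classes the reading depends on the reference. A ratio near 1 is what free RNA alone would give, and it sets no level for the class.

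Between genotypes none of the 10 genes was called in any segment. The proximal tubule is not where Hoxb7Cre acts, and the comparison asks whether its carriers differed between mice with and without *Tfap2a* in the collecting duct. By edgeR's quasi-likelihood test on UMIs summed per mouse, with Benjamini-Hochberg adjustment over all genes, 0 of 10 passed an adjusted p of 0.05 in S1, where 0.00697% of 14355 genes did. The same count was 0 of 10 in S2 (0.00643% of 15543 genes), in S3 (0.0272% of 14694) and in all proximal tubule nuclei together (0.00564% of 17719). At an unadjusted p under 0.05 the members were 1 in S1, 2 in S2, 0 in S3 and 2 in all nuclei, by edgeR as by DESeq2, which also called 0. Over all genes the share at that threshold was 2.84%, 3.11%, 2.96% and 3.54% with edgeR and 1.26%, 1.70%, 1.13% and 2.11% with DESeq2. With 2 mice against 2 an exact permutation test cannot go below p = 0.33. Nothing in the labels says that mice of 1 genotype came from separate litters, so p-values measure the spread between these mice.

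**Figure D3:**
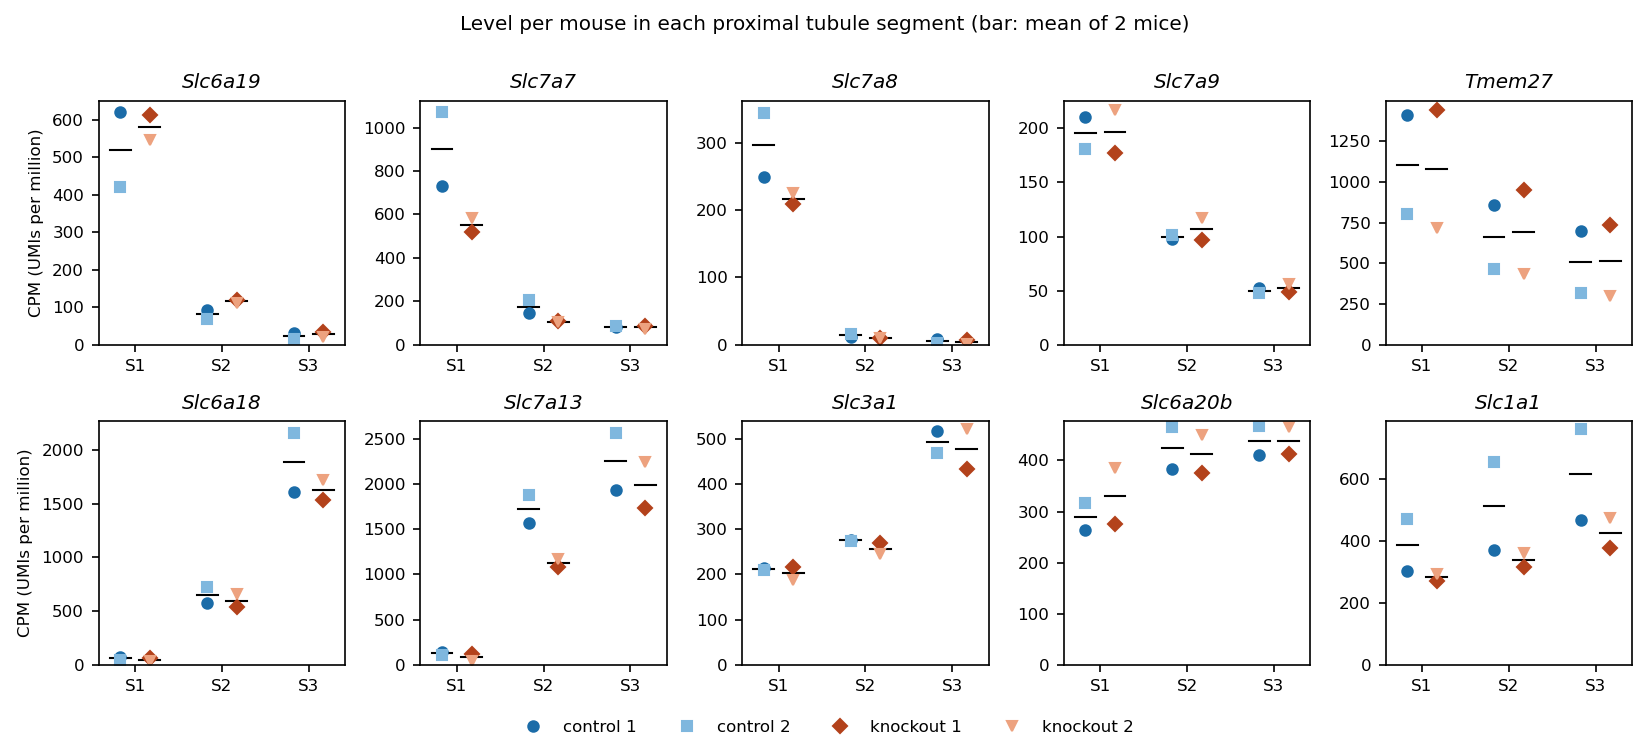
Level of each gene per mouse in S1, S2 and S3, in CPM on linear axes from 0; points are mice and bars the mean of 2 mice. Knockout and control points overlap for every gene in S3, and *Slc7a7* has both knockout mice below both controls in S1 and S2.

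The 2 genes with the smallest p were light chains of opposite gradient. *Slc7a7* was at 521 and 583 CPM in S1 of the knockout mice and at 730 and 1073 CPM in the controls, a log2 difference of -0.75 ± 0.25 (SE; edgeR adjusted p = 0.9998). In S2 it was at 108 and 103 CPM in knockout against 145 and 206 CPM in control mice, with a log2 difference of -0.78 ± 0.22 (edgeR adjusted p = 1). Knockout and control mice did not overlap in either segment, yet in S3 they did and the log2 difference was -0.09 ± 0.20. *Slc7a13* differed most in S2, with 1078 and 1166 CPM in knockout and 1571 and 1877 CPM in control mice, a log2 of -0.67 ± 0.19 (edgeR adjusted p = 1). In S1, without knockout 1, edgeR called *Slc7a13* lower (log2 -1.70, adjusted p = 0.0288). That fit rests on 136 UMIs of knockout 2, the library with the least free RNA, whose part in the call was not tested. In the fit of all 4 mice the sign turned with free RNA subtracted (log2 1.07). There the UMIs of control 2, at 0.83 times the free RNA estimate, were set to 0.

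Groups of mice that do not overlap were common among all genes. In S1 this held for 3 of the 10 genes (*Slc7a7*, *Slc7a8* and *Slc1a1*, lower in knockout mice), where it held for 30.1% of all genes tested. In S2 it was 6 of 10, with *Slc3a1*, *Slc7a7*, *Slc7a8*, *Slc7a13* and *Slc1a1* lower and *Slc6a19* higher, against 30.7% of all genes. In S3 it was 0 of 10 against 30.1%, and over all proximal tubule nuclei 5 of 10 against 30.6%. *Slc1a1* had log2 differences of -0.49 ± 0.25, -0.64 ± 0.29 and -0.57 ± 0.26 in S1, S2 and S3, and the 2 control mice also differed from each other, with 373 and 656 CPM in S2. *Slc6a19* had a log2 difference of 0.45 ± 0.21 in S2, at 121 and 111 CPM in knockout against 93.9 and 69.3 CPM in control mice.

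**Figure D4:**
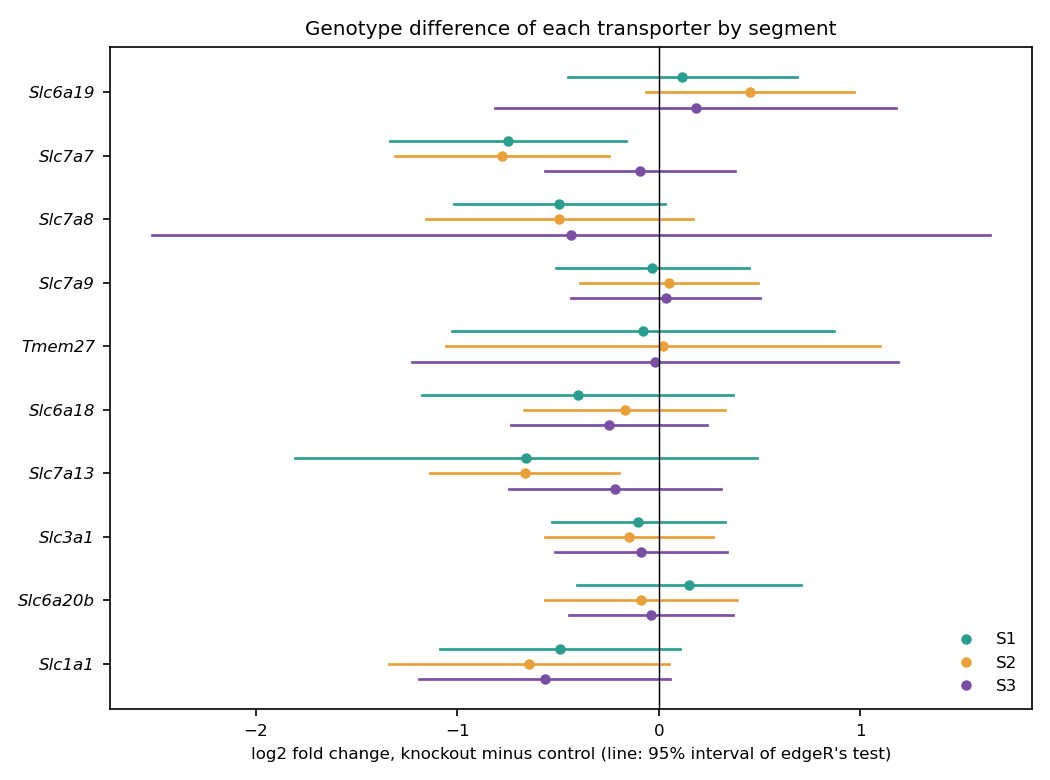
Log2 fold change, knockout minus control, of each gene in S1, S2 and S3 with the 95% interval of edgeR's quasi-likelihood test, n = 2 mice per genotype. The interval is widest for *Slc7a8* in S3, and those of *Slc7a7* in S1 and S2 and of *Slc7a13* in S2 lie below 0 before adjustment.

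The width of the interval around the difference varied by gene. For *Slc7a9* the 95% interval of the log2 difference was -0.51 to 0.45 in S1 and -0.43 to 0.50 in S3, and for *Slc3a1* it was -0.53 to 0.33 in S1. For *Tmem27* in S1 it was -1.03 to 0.87, since the 2 mice of each genotype differed about as in the other genotype. *Slc6a18* in S3, its main segment, had a log2 difference of -0.25 with an interval of -0.74 to 0.24. The median log2 difference of the 10 genes was -0.25 in S1, -0.16 in S2 and -0.09 in S3, beside 0.0027, 0.013 and 0.011 over all genes. With free RNA subtracted it was 0.0023 in S1, when 5 of 10 genes had a negative sign in place of 8, but it was -0.18 in S2 and -0.09 in S3. The positive signs in S1 then included *Slc6a18* and *Slc7a13*, whose UMIs subtraction had set to 0 in some mice.

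Of the 34 other transporters, 27 were tested in S1, 26 in S2 and 26 in S3, and 0 were called in each by edgeR (2, 1 and 0 at an unadjusted p under 0.05). DESeq2 called 1 of them lower in S1, the cationic amino acid carrier *Slc7a2* (log2 -2.26, DESeq2 adjusted p = 0.00222, against an edgeR adjusted p = 0.761). In the 11 classes outside the proximal tubule, 0 of 101 tests of the 10 genes passed the adjusted threshold with edgeR or with DESeq2 (3 and 0 at an unadjusted p under 0.05, which 1.90% to 4.34% of all genes in a class reached with edgeR and 0.234% to 1.25% with DESeq2). Over all genes the called share was 0% in thin limb, DCT, CNT, CD-PC, CD-IC, interstitial cells and podocytes, 0.0135% in TAL, 0.0097% in the deep medullary epithelium, 0.0171% in EC and 0.0725% in immune cells. *Slc7a8* in CNT differed by a log2 of -0.74 ± 0.38 (edgeR adjusted p = 0.9998), with 147 and 62.1 CPM in knockout and 170 and 182 CPM in control mice.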

How the data were processed

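Nuclei of 4 kidneys, 2 per genotype, were profiled with the 10x Chromium 3′ kit, and the authors counted UMIs per gene and barcode with Cell Ranger 3.0.2 against mm10. The deposited files hold these raw counts, with empty droplets and no normalization; whether intronic reads were counted is not given in the sources used here. Of the 10000 largest barcodes of each library, nuclei with more than 500 but fewer than 4000 genes and less than 5% of UMIs from mitochondrial genes were kept, after the study's methods. Integration and clustering used Seurat 5.3.0 in R 4.3.3 (2000 genes, 30 dimensions, resolution 0.5) and left out the 10 genes and 34 other transporters. Clusters were named from marker lists, with naming limits set after the clusters were seen; 863 nuclei in a cluster of high mitochondrial content and few UMIs, 405 in doublet clusters, 387 mixed and 173 unnamed were left out. UMIs were summed per mouse and class. Every gene that reached 10 UMIs in all mice together entered edgeR 4.0.16 (TMM, quasi-likelihood, no covariate, Benjamini-Hochberg adjustment, threshold 0.05), a script tested on simulated data. Doublets were called with Scrublet in scanpy 1.11.5 and left out as an alternative. The 10 genes had 612 to 15825 UMIs per mouse in the proximal tubule. Depth alone does not set the precision of a genotype difference, which also rests on the spread between 2 mice per genotype. Named were all 10 genes, transporters of at least 50 CPM, and for each of the 10 the 2 genes of highest correlation, of which 1 is not reported here. The members and lists were chosen with earlier results of these data known. Alternatives were DESeq2 1.42.0, other filters and scaling, a replicate block, each mouse left out, other nuclei and clusterings, and free RNA subtracted.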

Additional observations from a re-analysis of the deposited data

Results flagged for a closer look

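*Tmem27* was higher in the cluster of damaged nuclei, which no comparison used, than in any named class of the control mice. Its level there was 3869 CPM in control 1 (255 nuclei), 3786 CPM in control 2 (27 nuclei), 4043 CPM in knockout 1 (562 nuclei) and 2491 CPM in knockout 2 (19 nuclei). The highest level in a named class of a control mouse was 1408 CPM, in S1 of control 1. The cluster carries proximal tubule markers. Its median share of mitochondrial UMIs was more than 2 times that of all nuclei, and its median UMI count less than 0.4 times theirs. In barcodes under 100 UMIs *Tmem27* was at 1712, 1873, 1778 and 1305 CPM in the same order of mice. None of the other 9 genes exceeded its highest named level in the damaged nuclei of all 4 mice. No gene had both knockout mice lower in 1 segment and both higher in another.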

How the results depend on the processing

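The direction of all 10 segment gradients held in every clustering, nuclei and free RNA alternative and without either control mouse, with 5 genes highest in S1 and 5 in S3 each time. With free RNA subtracted the log2 ratio of S1 to S3 (1 CPM added) moved to -9.96 for *Slc6a18*, 8.18 for *Slc6a19*, 8.15 for *Slc7a8*, -8.16 for *Slc7a13*, 2.15 for *Slc7a9* and 1.60 for *Tmem27*, as subtraction lowers the low end. That of *Slc7a9* was 1.98 with mitochondrial UMIs under 1% and 2.03 with all variable genes used for clustering; the cause was not tested. No alternative called 1 of the 10 genes between genotypes except that in S1 the count was 0 to 1 with each mouse left out, *Slc7a13* without knockout 1. The lone mouse of a genotype is then assumed to vary like the others. Outside the proximal tubule 0 were called with DESeq2 or the block. Counts over all genes were less stable: 1, 1, 4 and 1 in S1, S2, S3 and all proximal tubule nuclei became 12, 19, 17 and 20 with DESeq2, 117, 166, 7 and 9 without a filter, 0, 0, 1 and 0 with free RNA subtracted and 0 to 39, 0 to 74, 2 to 8 and 0 with each mouse left out. They were 0 in S2 and 1 in S3 with filterByExpr, and 0 in S2 with all variable genes. The fits without a filter had 41360 degrees of freedom in S1 and 43300 in S2, so calls there do not rest on the spread between the 4 mice. With the replicate number as a block the counts over all genes were 30, 8, 51 and 11, and 0 of the 10 genes were called. At an unadjusted p under 0.05 by edgeR with the block the members were 5, 4, 1 and 4. Over all genes the share was then 5.99%, 5.84%, 6.66% and 6.69%. Same-numbered mice deviated together (correlations of 0.46 to 0.55 in the proximal tubule). No label gives a shared litter, so whether the numbers pair the mice is not known, and the block rests on 2 pairs.

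Of 30 fold changes by segment, 14 kept their sign in every alternative, *Slc7a7* in S1 and S2 and *Slc1a1* in all segments among them. Of the other 16, *Slc7a13* in S1 was called in 1 alternative, given above, and the rest in none. With free RNA subtracted the log2 difference was 7.12 for *Slc6a18*, 1.07 for *Slc7a13* and 0.031 for *Tmem27* in S1, and 0.15 for *Tmem27* in S3. Subtraction set counts below the free RNA estimate to 0. *Slc6a18* in S1 was at 0.95, 0.72 and 0.83 times that estimate in control 1, control 2 and knockout 1. Its value of 7.12 thus rests on knockout 2 alone. *Slc7a13* in S1 was set to 0 in control 2, at 0.83 times the estimate. With mitochondrial UMIs under 1% it was 0.33 for *Slc7a8* in S3, 0.019 for *Tmem27* in S1 and 0.14 for *Tmem27* in S3. Without TMM it was 0.00025 for *Slc6a20b* in S3, 0.0077 for *Slc7a9* in S1 and 0.021 for *Tmem27* in S3. It was 0.011 for *Slc7a9* in S1 without a filter, and for *Tmem27* in S2 it was -0.016 with all variable genes and -0.019 with the block. With each mouse left out it ranged from -0.13 to 0.44 (S1) and -0.27 to 0.79 (S3) for *Slc6a19*, and from -0.12 to 0.38 (S1), -0.23 to 0.045 (S2) and -0.13 to 0.048 (S3) for *Slc6a20b*. The range was -0.21 to 0.026 for *Slc3a1* in S3, -0.27 to 0.062 for *Slc7a7* in S3 and -2.33 to 0.66 for *Slc7a8* in S3. For *Slc7a9* it was -0.19 to 0.11 (S1), -0.10 to 0.17 (S2) and -0.057 to 0.12 (S3), and for *Tmem27* -0.66 to 0.40 (S1), -0.67 to 0.54 (S2) and -0.82 to 0.66 (S3). Depth limits *Slc7a8* in S3 most, with 3 to 25 UMIs per mouse.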

Other observations

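Among the other transporters, the cationic amino acid carrier *Slc7a2* had the lowest p of the list in S1, with a log2 difference, knockout minus control, of -2.28 ± 0.29 (SE; edgeR adjusted p = 0.761). In S1 it was at 42.9 CPM in control 1, 30.8 CPM in control 2, 6.75 CPM in knockout 1 and 9.15 CPM in knockout 2, from 164, 50, 28 and 31 UMIs. Both knockout mice were below both controls. DESeq2 called it (adjusted p = 0.00222), and edgeR did without knockout 1 (adjusted p = 0.0373), without knockout 2 (adjusted p = 0.00136), with the replicate number as a block (adjusted p = 0.0133) and without a filter on low counts (adjusted p = 1.19e-09). The other 9 edgeR alternatives did not call it (adjusted p from 0.399 to 0.932). In S2, where it had 1 to 25 UMIs per mouse, the log2 difference was 1.26 ± 0.63 (edgeR adjusted p = 1). It had 0 to 2 UMIs per mouse in S3. The GABA carrier *Slc6a13* had log2 differences of -0.58 ± 0.22 in S1 and -0.90 ± 0.17 in S2, with edgeR adjusted p = 0.9998 and 1. The S2 difference was called without a filter on low counts (edgeR adjusted p = 0.0434). Without that filter the edgeR fits had 41360 degrees of freedom in S1 and 43300 in S2, against 6.56 and 6.20 in the main fits. Their p-values, that of *Slc7a2* in S1 included, thus do not measure the spread between the 4 mice. *Slc7a12* had a log2 difference of -0.95 ± 0.18 over all proximal tubule nuclei (edgeR adjusted p = 0.9995). These 3 genes were singled out after their values were seen.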
